A study of Mus musculus with 6 samples.

Results

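The microRNAs (miRNAs, short RNAs that repress messenger RNAs) mmu-miR-99a and mmu-miR-100 belong to the miR-99/miR-100 family. They are 2 of the 709 miRNA assays on a real-time PCR array, and 2 of the 95 assays with a value in all 6 samples. The pair was chosen by name and by sequence relationship, and was selected on values already known: the difference between knockdown and intact samples, which is small for one and large for the other. That difference is therefore given for both as a description without a test. The third family member on the array, miR-99b, is described beside them.

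The samples are osteoclasts, the cells that resorb bone, sorted magnetically from mouse bone marrow as positive for OSCAR and CTR, a receptor of the lineage and the calcitonin receptor. The OCmiR-Intact group (intact) holds 3 samples from control mice whose osteoclast miRNAs were left in place, and the OCmiR-KD group (knockdown) holds 3 from mice with osteoclast-miRNA knockdown. The labels give neither the means of the knockdown, nor its target, nor the strain or age of the mice. The design text says that RNA of 3 mice of each kind was pooled, so the 3 samples of a group may be mice or repeat measurements of a pool. All p-values measure the spread between these samples only, which may be technical. In these bulk samples, fewer cells of a type and less RNA per cell cannot be told apart.

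The family is ancient and is known for repressing the growth kinase mTOR and components of insulin-like growth factor signalling. Its genes lie in paralogous clusters, each with a let-7 gene and a miR-125 gene downstream. Such clusters have been studied mainly in blood stem and progenitor cells and in tumours, and mTOR signalling is known to support osteoclast survival.

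The assay sequences are shown because a single base separates the members. Capitals mark the seed, bases 2 to 8 from the 5′ end, which pairs with target messenger RNAs. The first 3 share their seed, and the miR-10 relatives, both without values here, resemble them elsewhere but have another seed.
miR-99a: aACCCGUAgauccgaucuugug
miR-100: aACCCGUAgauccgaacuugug
miR-99b: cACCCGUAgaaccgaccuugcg
miR-10a: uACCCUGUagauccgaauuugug
miR-10b: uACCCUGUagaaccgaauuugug

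From miR-99a to miR-100 the only change is U16A, counted from 1 at the 5′ end, so 21 of 22 bases are identical. From miR-99a to miR-99b there are 4 changes, A1C, U11A, U16C and U21C, and from miR-100 to miR-99b there are also 4, A1C, U11A, A16C and U21C. No change falls in the seed. All 3 assays on the array with the seed ACCCGUA were measured, and 0 other assays carry it. How far an assay also reads a relative that differs by a base was not tested, so the separate values of miR-99a and miR-100 are uncertain in that respect. Each of these sequences is identical to a mature miRNA in RefSeq (GRCm38.p6). There miR-99a lies at chr16:77598940-77598961, miR-100 at chr9:41531437-41531458 and miR-99b at chr17:17830194-17830215, all on the plus strand.

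Levels below are minus delta Ct. Ct is the cycle of the PCR in which the fluorescence passes a threshold, and delta Ct is that cycle minus the Ct of the reference RNA U6 in the same sample and plate. A level is thus in log2 units over U6, and 1 unit stands for a doubling if each cycle doubles the template. A level reflects the primers of its assay too, which makes a comparison between assays one of readings, not of abundance. U6 itself crossed the threshold on plate 1, which holds miR-99a, miR-100 and miR-99b, at 29.3 to 30.3 cycles in intact and at 29.3 to 31.1 cycles in knockdown samples.

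A property of the deposited values limits each comparison below. Taken as 2 to the power of minus the Ct difference from U6 of plate 1, the 3 knockdown values had a mean within 0.001 of 1 in 88 of the 95 assays. The intact values had such a mean in 0 of the 95. Both members are among the 88: the linear knockdown mean was 1.0001 for miR-99a and 1.0002 for miR-100. The sources used here do not give which step set these means. The knockdown mean is therefore no independent reading, and the size of a difference between groups rests on the intact values.

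miR-99a read close to U6 in every sample. Of the 95 assays only 4 had a lower mean intact level, and the median intact level was 4.25. The intact reading of miR-99a thus already stood near the value at which its knockdown mean is fixed. The level of miR-99a was -0.19, -0.22 and 0.47 in intact samples 1, 2 and 3, and -0.63, -0.016 and 0.45 in knockdown samples 1, 2 and 3. The groups overlapped, and the highest reading of each group was that of its sample 3. Its deposited Ct, with no reference subtracted, was 29.7 ± 0.211 cycles in the intact group and 30.4 ± 1.43 in the knockdown group (SD, n = 3 each). The difference in level, knockdown minus intact, was -0.09 (SE 0.52), a 1.06-fold lower level that is smaller than the spread within either group.

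miR-100 was read far above U6 in the intact samples. Its level there was 4.62, 5.32 and 4.46 in samples 1, 2 and 3. In knockdown samples 1, 2 and 3 it was -0.098, 0.81 and -1.70. All intact samples lay above all knockdown samples, and the knockdown samples were the more widely spread, with sample 3 lowest. The mean went from 4.80 ± 0.46 to -0.33 ± 1.28 (SD, n = 3 each), a difference of -5.13 (SE 0.72) or a 35-fold lower level. Without knockdown sample 3 it was -4.44. The Ct of miR-100 was 24.9 ± 0.848 cycles in the intact group and 30.7 ± 0.804 in the knockdown group (SD, n = 3 each).

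**Figure D1:**
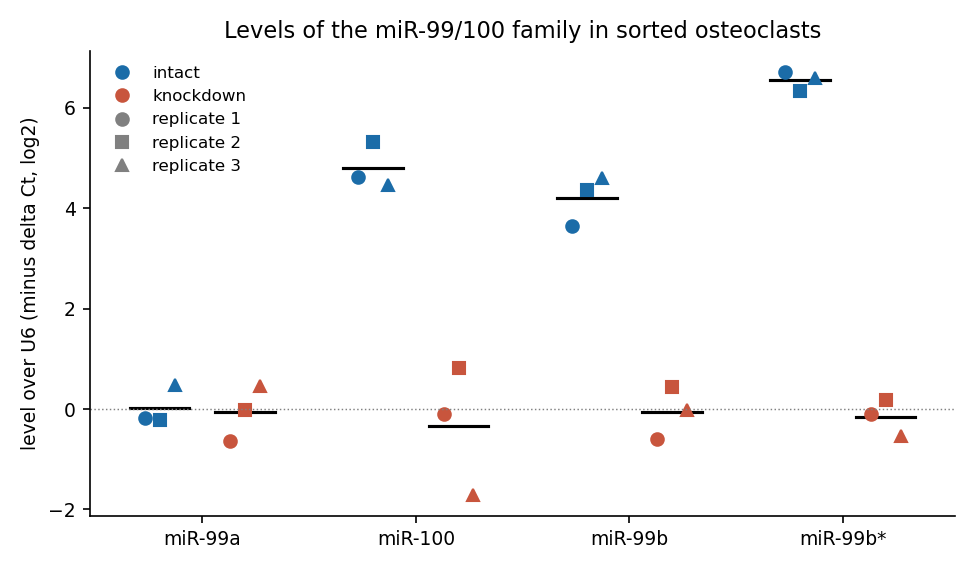
Levels over U6 (minus delta Ct, log2) of miR-99a, miR-100, miR-99b and miR-99b* in each intact (blue) and knockdown (red) sample, with bars at the group means of 3 samples and symbols for the replicate number. miR-99a lies near 0 in both groups, while the other 3 assays lie between 3.65 and 6.72 in intact samples and between -1.70 and 0.81 in knockdown samples.

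With the threshold of limma (adjusted p under 0.05), 1 of the 2 members was called lower, miR-100, against 84.2% of the 95 assays. Of the 95 assays 80 were called lower and 0 higher, a split that became 19 lower and 19 higher when each sample was centred on the mean Ct of its measured assays, and 4 lower and 8 higher after quantile normalization. In 1 of the 2, again miR-100, the 3 knockdown values were all below the 3 intact values, against 82.1% of the 95. Since this contrast was in view when the pair was chosen, nothing is read from these counts. Ordered from the most negative difference, miR-100 stood 38th of the 95 assays and miR-99a 89th. The median difference over all 95 was -4.54 with quartiles of -5.99 and -3.10, and the difference of miR-100 lies between these quartiles. Of the 88 assays with a linear knockdown mean of 1, miR-99a had the smallest difference in size, and the next smallest was 0.49 for miR-486, an erythroid miRNA. The intact linear mean of miR-99a was itself 1.04, against 28.9 for miR-100.

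In the contrast between the members the subtracted U6 value cancels, because both stand on plate 1. The contrast is still not free of U6, since the fixed means tie the knockdown Ct values to it. miR-99a minus miR-100 was -4.80, -5.55 and -3.99 log2 units in intact samples 1, 2 and 3. It was -0.53, -0.83 and 2.15 in knockdown samples 1, 2 and 3. miR-99a read below miR-100 in all intact samples and in knockdown samples 1 and 2, and above it in knockdown sample 3. The gap was -4.78 ± 0.78 (SD, n = 3) in intact samples and 0.26 ± 1.64 (SD, n = 3) in knockdown ones, and the groups did not overlap. This was not particular to the pair, since the gaps of miR-99a to miR-99b and to let-7c separated the groups too. How many further assays do so was not counted. The gap between the members changed by 5.04 log2 units between the groups, or by 4.10 without knockdown sample 3. As both linear knockdown means equal 1, the knockdown gap is set near 0 apart from the spread of the 3 values, and the change is mostly the gap of the intact readings.

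The sizes of the members' differences depend on the reference, and for miR-99a the direction does too. When each sample was centred on the mean Ct of its measured assays, miR-99a was 4.40 higher and miR-100 was 0.65 lower in knockdown samples (differences of 4.40 and -0.65 log2 units). After quantile normalization the differences were 3.82 and -0.19. Centring subtracts a mean change that the assays with fixed knockdown means largely make up. Against the 2 unnamed control wells of plate 1, a reference added after the data had been seen, they were -0.57 for miR-99a and -5.61 for miR-100. Those wells moved in opposite directions, by -0.571 and 0.823 cycles between intact and knockdown.

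miR-99b was not Null but had a value in all samples, and it was read above U6 in intact samples. Its level was 3.65, 4.37 and 4.60 in intact samples 1, 2 and 3, and -0.60, 0.44 and -0.027 in knockdown samples 1, 2 and 3. The groups did not overlap. The difference was -4.27 (95% interval -5.51 to -3.03; limma adjusted p = 0.00016), a 19.3-fold lower level, and its knockdown mean too is fixed at 1. The difference of miR-99b was 0.21 on centring (limma adjusted p = 0.83) and 0.07 after quantile normalization (limma adjusted p = 0.98). Neither passed, so no direction is read from them.

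Within samples, miR-99b minus miR-100 was -0.96, -0.95 and 0.14 in intact samples and -0.50, -0.37 and 1.68 in knockdown samples, so these groups overlapped. miR-99a minus miR-99b was -3.84, -4.59 and -4.13 in intact samples. In knockdown samples it was -0.03, -0.46 and 0.48, above all 3 intact values. How many other assays separate the groups in this way against miR-99a was not counted. In level alone, which is another measure than a gap, 82.1% of the 95 assays had all knockdown values below all intact values. Here too the fixed knockdown means set the knockdown gaps near 0 apart from their spread.

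**Figure D2:**
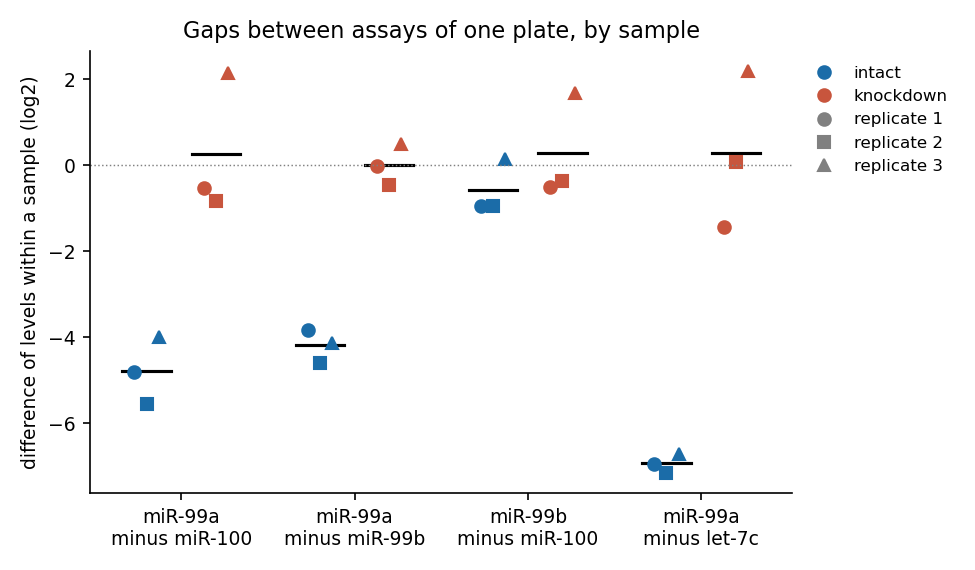
Difference of levels between 2 assays of plate 1 within each intact (blue) and knockdown (red) sample, in log2 units, with bars at group means of 3 samples. The pairs with miR-99a separate the groups, with intact means of -4.78 against miR-100, -4.19 against miR-99b and -6.93 against let-7c, while miR-99b minus miR-100 overlaps. All assays shown have a linear knockdown mean fixed at 1, which sets the knockdown gaps near 0 apart from their spread. In level alone, which is another measure than a gap, 82.1% of the 95 assays had every knockdown value below every intact value.

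The star strand of the miR-99b hairpin, miR-99b* (the opposite arm, RefSeq name miR-99b-3p), was also measured, on plate 2. Its level was 6.72, 6.34 and 6.59 in intact samples and -0.099, 0.18 and -0.54 in knockdown samples 1, 2 and 3. The difference was -6.70 (95% interval -7.80 to -5.60; limma adjusted p = 1.9e-05), a 104-fold lower level. The linear knockdown mean of miR-99b* is fixed too, at 0.9999 over U6 of plate 1, although its level is taken over U6 of plate 2. The difference was -2.46 on centring, which still passed (limma adjusted p = 0.023), and -1.59 after quantile normalization, which did not (limma adjusted p = 0.33). Its knockdown values, however, equal those of another assay. miR-99b* on plate 2 and miR-361 on plate 1 both stand at Ct 31.278, 29.772 and 30.761 in knockdown samples 1, 2 and 3, while their intact values share no reading.
The sequences of the strand pair of this hairpin are unrelated in their seeds:
miR-99b: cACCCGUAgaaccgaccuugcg
miR-99b*: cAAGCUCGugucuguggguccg

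Of the 4465 pairs among the 95 assays, 2 hold the same Ct in all knockdown samples, this one and miR-24 with miR-199a-3p, which share their intact Ct values too. The knockdown reading of miR-99b* is therefore not shown to be a separate measurement. To which assay of the pair, if either, the shared values belong cannot be told here. None of miR-99a, miR-100 and miR-99b shares all 6 Ct values with another assay, and none of them repeats a delta Ct between samples. The array holds no assay named as a star strand of miR-99a or miR-100.

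In the genome, each family member heads a cluster. Mir99a (chr16:77598936-77599000) is followed after 656 bases by Mirlet7c-1 and after 47272 by Mir125b-2. Mir100 (chr9:41531425-41531504) lies within the annotated extent of the long non-coding RNA gene Mir100hg and is followed after 5211 bases by Mirlet7a-2 and after 50421 by Mir125b-1. Mir99b (chr17:17830188-17830257) is the most compact, with Mirlet7e 94 bases and Mir125a 554 bases downstream. In the RefSeq table, mature let-7c has 2 loci and miR-125b-5p has 2, those of the miR-99a and miR-100 clusters, so neither assay reports on 1 cluster alone. Loci outside that table were not looked for, so let-7a is not shown to report on the miR-100 cluster alone either.

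**Figure D3:**
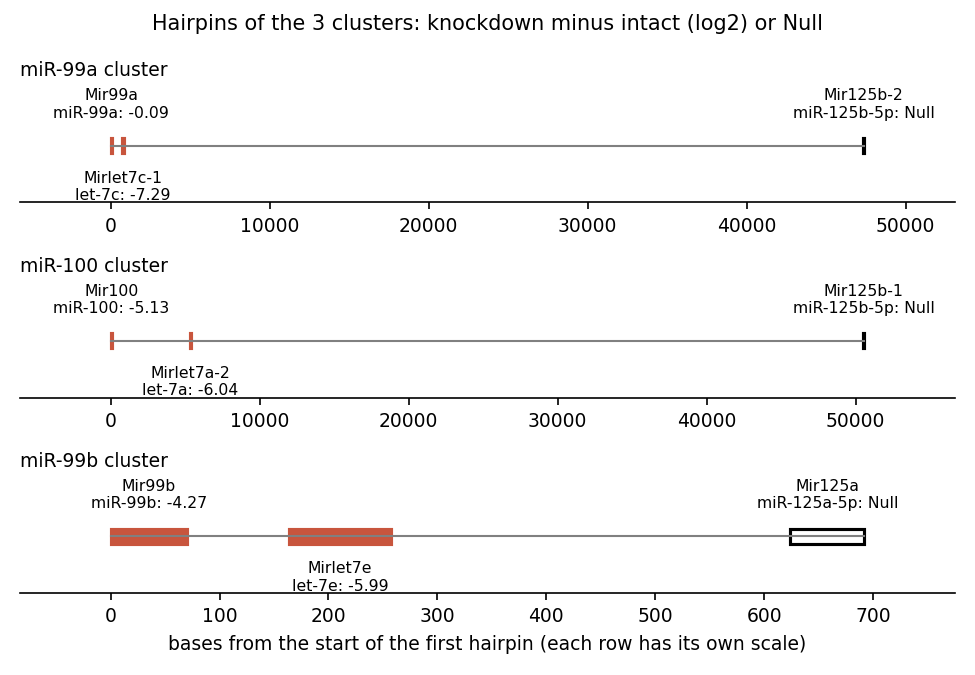
Hairpins of the 3 clusters along the genome, in bases from the start of the first hairpin with a scale of its own in each row; filled boxes are measured assays with the difference knockdown minus intact (log2, over U6) and black outlines are Null. All 3 miR-99/miR-100 hairpins and all 3 let-7 hairpins have values, with differences from -7.29 to -0.09, and the miR-125 assays have none.

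The miR-125 assays were Null throughout. miR-125a-5p, miR-125b-5p, miR-125a-3p, miR-125b-3p and miR-125b*, 5 of 5, had no value in any sample, although miR-125a-5p shares its cluster with the measured miR-99b and let-7e. The mature strands, which share a seed, are shown as the Null part of the clusters.
miR-125a-5p: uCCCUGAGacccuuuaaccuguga
miR-125b-5p: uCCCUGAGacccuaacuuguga

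Across the array 614 assays were Null in all 6 samples and 0 in only some. Null is thus a status of an assay over the whole data set, and the sources used here do not give the rule behind it. Of the 4 miR-10 assays, both strands of miR-10a and miR-10b, all were Null as well, as were the 3 star strands of let-7a and let-7c on the array.

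The let-7 neighbours, which repress growth genes such as Hmga2, were all measured and all passed as lower, 3 of 3 against 84.2% of the 95 assays, with knockdown means fixed at 1. let-7c, beside miR-99a, was at 6.75, 6.94 and 7.17 in intact and at 0.81, -0.082 and -1.74 in knockdown samples. The groups did not overlap, and the difference was -7.29 (SE 0.71, limma adjusted p = 3.9e-05), or -6.59 without knockdown sample 3. In the order of differences miR-99a stood 89th and let-7c 11th of 95. As both knockdown means are fixed at 1, these places rest on the intact readings, with linear means of 1.04 and 125. Mature let-7c has 2 loci, so its reading is not that of the hairpin beside Mir99a alone. miR-99a minus let-7c was -6.93 ± 0.23 (SD, n = 3) in intact samples and 0.27 ± 1.83 (SD, n = 3) in knockdown ones.

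let-7a, beside miR-100, was at 4.94, 5.01 and 5.14 in intact and at 0.97, -0.037 and -3.97 in knockdown samples. Its difference was -6.04 (SE 1.18, limma adjusted p = 0.0018), and it was -4.56 without knockdown sample 3 and -7.03 without knockdown sample 1. miR-100 minus let-7a was -0.23 ± 0.51 (SD, n = 3) in intact samples and 0.68 ± 1.67 (SD, n = 3) in knockdown ones, and the groups overlapped. Knockdown sample 3 was the lowest knockdown sample for miR-100, let-7a and let-7c, and the highest for miR-99a and let-7e.

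let-7e, beside miR-99b, was at 5.96, 5.87 and 5.72 in intact and at -0.52, -0.63 and 0.73 in knockdown samples. Its difference was -5.99 (SE 0.54, limma adjusted p = 3.9e-05). On centring, the differences were -2.81 for let-7c, which passed (limma adjusted p = 0.019), and -1.56 for let-7a and -1.51 for let-7e, which did not (limma adjusted p = 0.35 and 0.053). After quantile normalization none of the 3 passed (limma adjusted p from 0.31 to 0.73).

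**Figure D4:**
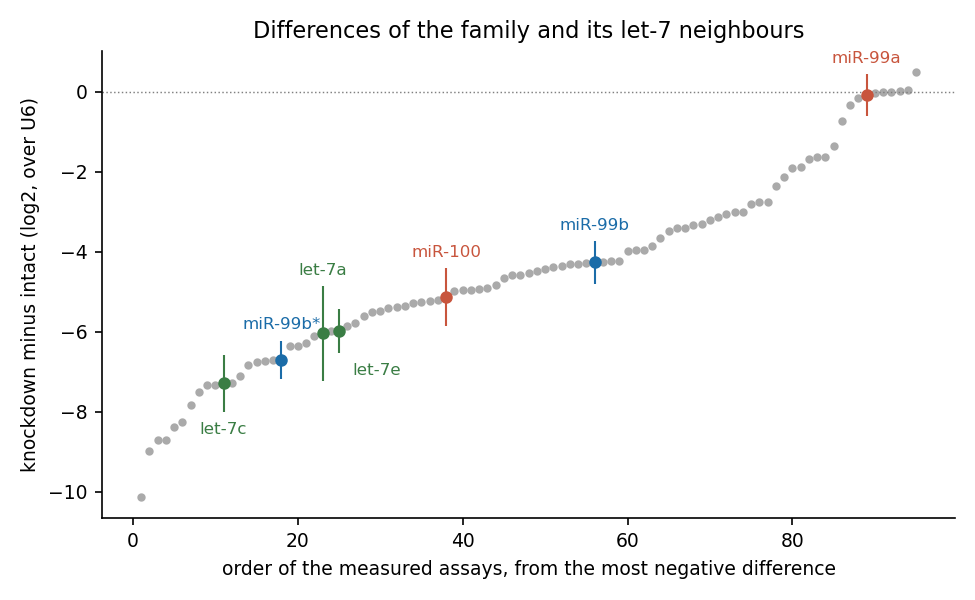
Difference in level, knockdown minus intact (log2, over U6), of the 95 measured assays (grey) in order from the most negative, with the SE drawn for the family (red for the members, blue for miR-99b and miR-99b*) and for the let-7 neighbours (green). miR-99a at -0.09 lies in the flat end near 0, miR-100 at -5.13 and miR-99b at -4.27 in the middle, and let-7c at -7.29 furthest to the left of those named.

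The measured assays whose pattern came nearest to each member were found by the root mean square difference of levels over the 6 samples, after each assay's own mean was subtracted. For miR-99a these were miR-138 (0.62 log2 units), miR-103 (0.75), miR-26a (0.77), miR-486 (0.78) and miR-543 (0.91), whose own differences between the groups run from -0.75 to 0.49. Of these, miR-26a and miR-486 have a linear knockdown mean of 1, as miR-99a does. The knockdown levels of miR-138 (-5.35 to -4.48), miR-103 (3.24 to 5.26) and miR-543 (5.13 to 6.77) lie too far from U6 for such a mean. The likeness to miR-99a thus joins assays with and without a fixed mean. In the order of nearness to miR-99a, miR-100 ranked 59th of 94 and miR-99b 34th. For miR-100 the nearest were miR-148b (0.62), miR-375 (0.63), miR-423-5p (0.63), miR-669h-3p (0.69) and miR-652 (0.72). miR-99b ranked 12th, let-7a 24th and miR-99a 90th of 94.

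With the mean of each group subtracted, so that only the spread within groups counts, the nearest to miR-99a were miR-451 (0.18), miR-320 (0.25) and miR-191 (0.26), and miR-99b ranked 9th of 94 (0.35). The nearest to miR-100 were miR-375 (0.45), miR-486 (0.46) and miR-103 (0.50), and miR-99b ranked 27th (0.80). Within groups, miR-99b was thus nearer to miR-99a than to miR-100, the reverse of their order over all samples.

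The array holds miRNAs only, so the sorted cells could not be set against osteoclast messenger RNAs such as those of OSCAR and CTR. miR-100 and miR-99a are also found in stromal and endothelial cells. Of 8 stromal and osteoblast-lineage miRNAs, 4 were measured (miR-199a-3p, miR-214, miR-143 and miR-145) and 4 passed as lower, against 84.2% of all 95 assays, with a median difference of -5.89 against -4.54 over all 95; their summed linear level over U6 was 223 to 430 in intact and 3.55 to 4.61 in knockdown samples. The Null ones were miR-199a-5p, miR-199b, miR-218 and miR-140. miR-199a-3p shares every Ct value with miR-24, so its part in this count, median and sum is not shown to be a measurement of its own. Of 2 endothelial miRNAs, miR-126-3p was measured and passed (-4.59, level sums of 9.08 to 43.8 and 0.541 to 1.33), and miR-126-5p was Null.

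Of 6 myeloid miRNAs, miR-223, miR-142-5p and miR-342-3p were measured and passed, again against 84.2% of all assays, with a median of -5.86 and sums of 167 to 317 and of 1.81 to 5.28, while miR-142-3p, miR-155 and miR-146a were Null. The erythroid list held miR-144 and miR-451, which passed (median -3.56, sums of 13.9 to 16.7 and of 0.652 to 4.34). The erythroid miR-486, which is not on that list, was not called, with a difference of 0.49. Of 6 epithelial miRNAs, miR-200a, miR-200c and miR-203 were measured and passed (median -8.71, sums of 1120 to 1760 and of 1.78 to 3.82), and miR-200b, miR-141 and miR-429 were Null. All measured markers on these lists have a knockdown mean fixed at 1, and their part in the differences of miR-99a and miR-100 was not tested.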

How the data were processed

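Per the labels' protocols, the QuantiMir kit turned Trizol-extracted RNA into cDNA, and a ViiA7 instrument ran 40 cycles with SYBR Green. The authors deposited Ct values of 717 wells, delta Ct values on a log2 scale (Ct minus U6 of the same plate) of 709 assays and, per the file headers, linear folds of intact over knockdown. Deposited Ct minus delta Ct was checked to be 1 constant per sample and plate. The folds of intact over knockdown in the authors' deposited table were 1.06 for miR-99a and 35 for miR-100. Identifiers of 48 wells, turned into scientific notation, were restored. The sources used here do not give the Ct threshold or the rule for Null.

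Minus delta Ct was compared with limma 3.58.1 in R 4.3.3 (lmFit, eBayes, no covariate, two-sided, Benjamini-Hochberg over the 95 assays with a value in all samples and a Ct under 35 in at least 3). The step was tested on simulated data. Members, lists and rules were chosen with earlier results of these data known. Named assays are the members, the family, cluster, miR-10 and marker lists, and the 5 assays nearest to each member over the 6 samples and 3 within groups. miR-361, miR-24 and any other were chosen after their values were seen. Alternatives were other references, Ct limits, linear averaging, another moderation, leaving out samples and a replicate block. A PCR array has no read depth, and the number of samples limits precision.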

Additional observations from a re-analysis of the deposited data

How the results depend on the processing

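The reference decided most. Centred on the measured assays, 38 of the 95 assays passed instead of 80 (limma), and after quantile normalization 12. In these settings the differences were 4.40 and 3.82 for miR-99a, -0.65 and -0.19 for miR-100, and 0.21 and 0.07 for miR-99b. Those of miR-99b did not pass, and 1 and 0 of the 3 let-7 neighbours passed. miR-99a was at -0.69 with no reference subtracted and at -0.57 against the control wells. Both settings keep knockdown Ct values that the fixed mean ties to U6. The change of the miR-99a minus miR-100 gap was 4.01 after quantile normalization and 4.80 from linear means. Leaving out 1 sample gave 75 to 81 calls, 3 of 3 let-7 neighbours, -0.34 to 0.20 for miR-99a, -5.70 to -4.44 for miR-100 and 4.10 to 5.59 for the gap. In the labels, intact and knockdown samples share only a replicate number, and whether they are paired is not settled. Same-numbered samples correlated at 0.02, 0.10 and 0.08 in their deviations from the group means, with 5 of 6 samples closest to their own number. With the replicate block, 82 assays passed and the differences of -0.09 and -5.13 and the gap of 5.04 were the same. let-7a did not meet a limit of Ct under 32 in all samples and was not fitted there.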

Other observations

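Sorted by size and whatever the sample, the 3 linear knockdown values of miR-99a were 0.646, 0.989 and 1.365, and those of miR-99b were 0.661, 0.981 and 1.358. The largest distance between the sorted values was 0.014. Of the 87 other assays with a knockdown mean of 1, miR-99b was the only one within 0.02 of miR-99a, and the next nearest, miR-26a, lay 0.079 away. The values stand in different samples, since the highest belongs to sample 3 for miR-99a and to sample 2 for miR-99b. For miR-100 the sorted values were 0.307, 0.934 and 1.759, and let-7c was the only assay within 0.02, at 0.299, 0.945 and 1.757, with miR-122 next at 0.039. The measure was chosen after these values were seen. How often assays with a fixed mean have another within 0.02 was not counted, so these matches are not shown to be unusual. The fixed mean leaves only 2 of the 3 values free, and no cause was tested.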
